A study of Mus musculus with 2 samples.

Results

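Transcripts of 10 genes of the calcium–calcineurin–NFAT pathway were compared between a pair of sorted bone marrow populations, RANKhigh c-Fmslow cells and RANKlow c-Fmshigh cells. The 10 genes are the NFAT factors Nfatc1, Nfatc2, Nfatc3, Nfatc4 and Nfat5, the calcineurin subunits Ppp3ca, Ppp3cb and Ppp3r1, and the calcium-dependent regulators Camk4 and Rcan1. They were chosen by gene symbol, as genes whose probe sets name them and no other gene, and they are 10 of the 19935 genes measured. Each was represented by 1 probe set, so no gene value is an average. Both populations came from 6-week-old mice of the outbred ddY strain: marrow was spun on a density gradient, and the mononuclear cells were stained for RANK, the receptor of the osteoclast-inducing cytokine RANKL, and for c-Fms, the M-CSF receptor, and sorted. The labels do not give the number of mice behind each array. There was 1 array per population, so every value is a lone reading without replicate error, and no difference carries a test or p-value. The populations are called RANKhigh cells and c-Fmshigh cells from here on.

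NFAT proteins are transcription factors that rest in the cytoplasm in a phosphorylated form. A rise in cytosolic calcium loads calmodulin, which activates calcineurin, a phosphatase of a catalytic A subunit and a calcium-binding B subunit. Calcineurin strips phosphates from NFAT, and NFAT then enters the nucleus until kinases phosphorylate it again. In osteoclast precursors RANKL and ITAM-coupled receptors start calcium oscillations, and NFATc1, encoded by Nfatc1, amplifies its own gene and switches on the resorption genes of the osteoclast. The pathway is controlled to a large part by protein modification, which transcript levels do not show.

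The values are linear intensities in arbitrary units. A difference is on the log2 scale and positive where a gene was higher in RANKhigh cells. Intensities of different genes come from different probes and are not set against each other. The sort label held for the transcript of c-Fms, as Csf1r stood at 164 in RANKhigh cells and 821 in c-Fmshigh cells. The transcript of RANK was not higher in RANKhigh cells: Tnfrsf11a stood at 104 in RANKhigh cells and 119 in c-Fmshigh cells, a difference of -0.20. This rests on 1 probe set with values not far above the background guide given below. The difference was close to 0.19, the median gap between probe sets of the same gene, so no direction is claimed for it. The gate was set by staining for the protein, which the arrays do not measure. RANKhigh is therefore used as the name of the sort gate. As a guide to background, the 95th percentile of 1189 olfactory and vomeronasal receptor genes was 83.8 in RANKhigh cells and 81.8 in c-Fmshigh cells. Where the lower of a gene's values lay under this guide, its fold is given as a bound.

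The 10 genes differed little between the populations. At a size rule of 2-fold, or 1 on the log2 scale, 0 of the 10 were higher and 0 were lower in RANKhigh cells. A level filter kept the 11089 genes with at least 1 of their values at or over 93.6, the median intensity of the arrays together. Of these, 8.59% were at least 2-fold apart in either direction (4.34% higher and 4.26% lower). Among the 10 genes, 8 reached that level, and Nfatc4 and Camk4 did not. At 1.5-fold, 1 of these 8 genes was lower in RANKhigh cells, Ppp3r1, against 12.4% of the 11089 genes, and 0 were higher, against 10.5% of them (22.9% in either direction). With so few genes these counts do not set the pathway apart from the rest of the array. The median difference was -0.05 over the 10 genes, beside 0.01 over all 19935 genes, and the differences ran from -0.65 (Ppp3r1) to 0.47 (Ppp3ca).

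**Figure D1:**
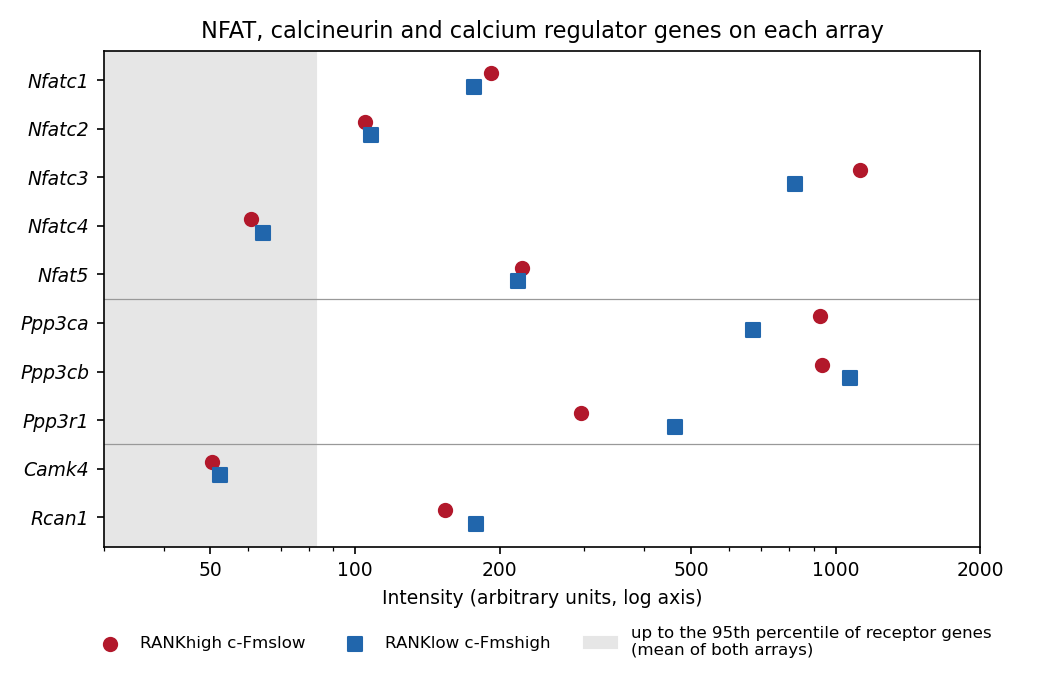
Intensity of each of the 10 genes (arbitrary units, log axis) in RANKhigh c-Fmslow cells (circles) and RANKlow c-Fmshigh cells (squares), 1 array each. The points of Nfatc4 (60.7 in RANKhigh c-Fmslow and 64.2 in RANKlow c-Fmshigh cells) and Camk4 (50.4 in RANKhigh c-Fmslow and 52.5 in RANKlow c-Fmshigh cells) lie inside the grey background range, and the widest gaps between paired points are those of Ppp3r1, Ppp3ca and Nfatc3.

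Among the NFAT factors only the transcript of Nfatc3 differed by more than 0.2 on the log2 scale. Nfatc3, a factor of T cell development and muscle, stood at 1126 in RANKhigh cells and 825 in c-Fmshigh cells. It was thus 1.37-fold higher in RANKhigh cells (0.45 on the log2 scale). In bulk samples fewer cells of a type and less RNA per cell cannot be told apart, and the cell type markers that differ between these populations are given at the end. A difference of this size or larger was shown by 32.0% of the 11089 genes. Nfatc1, the factor that RANKL induces during osteoclast formation, stood at 192 in RANKhigh cells and 176 in c-Fmshigh cells. Its difference of 0.12 was matched or passed by 76.2% of those genes, and both values were above the background guide. The transcript of the osteoclast regulator was thus measurable in both populations and nearly level between them.

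Nfatc2 is abundant in lymphocytes and is known to sit on the Nfatc1 gene early in osteoclast formation. It stood at 105 in RANKhigh cells and 108 in c-Fmshigh cells, a difference of -0.04. Nfat5 is the distant family member that responds to osmotic stress and is not controlled by calcineurin. It stood at 222 in RANKhigh cells and 218 in c-Fmshigh cells, a difference of 0.03. Nfatc4, best known from heart and neurons, stood at 60.7 in RANKhigh cells and 64.2 in c-Fmshigh cells, under the guide in both, so no detection and no difference is claimed for it. The gap between probe sets of the same gene puts these sizes in proportion: over 558 genes with exactly 2 probe sets, the log2 differences of the pair lay a median of 0.19 apart. The differences of Nfatc1, Nfatc2 and Nfat5 were smaller than this gap, and that of Nfatc3 was larger. It was still inside the 90th percentile of the gaps, 0.67, and so were the differences of the other 9 genes.

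The probe sets do not separate transcript forms. The annotation lists 6 curated RefSeq transcripts for the Nfatc1 probe set and 18 for that of Nfatc2. The short, inducible form of NFATc1 that builds up during osteoclast formation can therefore not be told from the long forms here. For Nfatc3, the factor with the largest difference, RefSeq places starts at a pair of sites on GRCm38.p6. The 250 bases before each are shown with the NFAT core motif GGAAA, read on both strands (TTTCC on the printed strand is a match on the other), in capitals. The first window lies at chr8:106058568-106058817, plus strand, and the second at chr8:106059340-106059589, plus strand.
Nfatc3 upstream start: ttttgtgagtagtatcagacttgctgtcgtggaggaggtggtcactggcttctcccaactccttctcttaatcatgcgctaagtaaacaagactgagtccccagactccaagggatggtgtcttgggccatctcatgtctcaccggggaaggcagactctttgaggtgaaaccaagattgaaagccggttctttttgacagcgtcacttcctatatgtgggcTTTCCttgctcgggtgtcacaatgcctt
Nfatc3 downstream start: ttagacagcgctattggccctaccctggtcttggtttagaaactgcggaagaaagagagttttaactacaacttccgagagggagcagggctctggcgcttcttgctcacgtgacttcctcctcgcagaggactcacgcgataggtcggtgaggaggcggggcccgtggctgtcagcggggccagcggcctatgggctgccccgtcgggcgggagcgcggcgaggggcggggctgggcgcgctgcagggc
The upstream window holds 1 match and the downstream window 0. At least 1 match stands in 55.6% of all 32851 RefSeq windows of this length, since the motif is short and also holds the GGAA core that ETS factors read. A match is a run of letters and not evidence of binding.

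**Figure D2:**
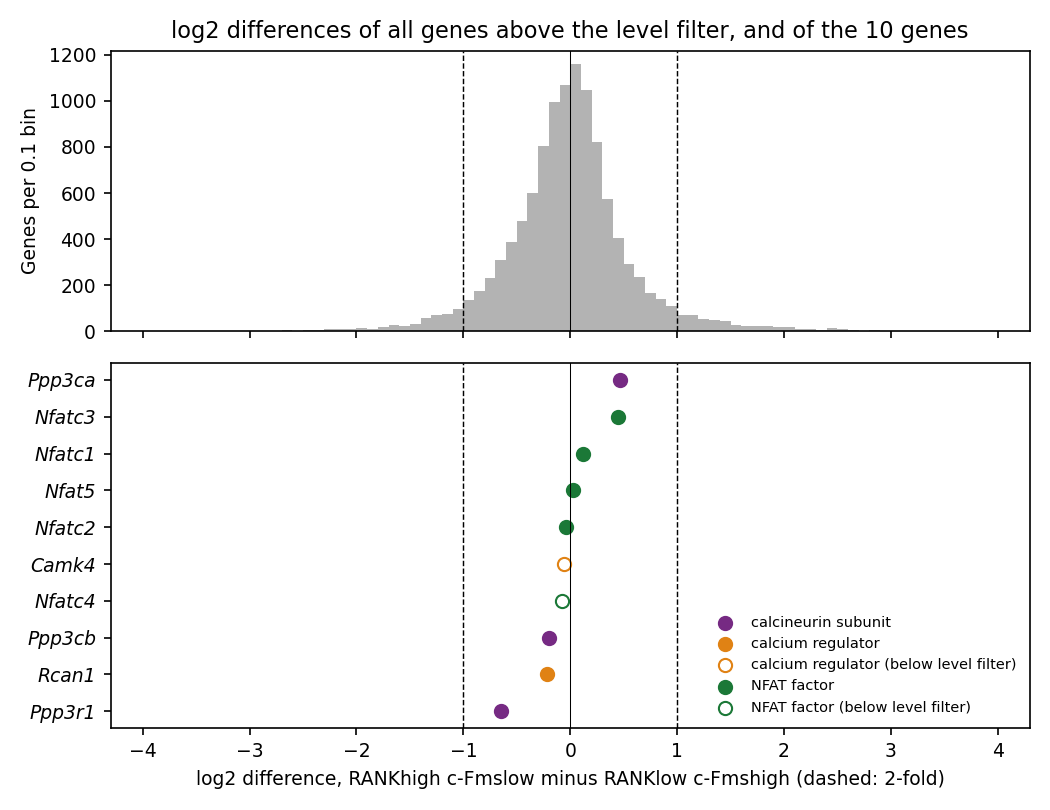
The upper panel is a histogram of the log2 differences (RANKhigh c-Fmslow minus RANKlow c-Fmshigh) of the 11089 genes above the level filter in bins of 0.1, and the lower panel gives the 10 genes on the same axis, with open circles for those below the filter. All 10 points lie between the dashed lines at 2-fold, from Ppp3ca at 0.47 down to Ppp3r1 at -0.65.

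The calcineurin subunits differed in opposite directions. Ppp3ca, the catalytic A-alpha subunit, abundant in brain, stood at 928 in RANKhigh cells and 672 in c-Fmshigh cells. It was 1.38-fold higher in RANKhigh cells (0.47 on the log2 scale), the highest difference of the 10 genes. Ppp3cb, the catalytic A-beta subunit, known for its part in lymphocyte and heart NFAT signalling, stood at 937 in RANKhigh cells and 1074 in c-Fmshigh cells. Its difference was -0.20, close to the median gap between probe sets, and it shrank to -0.07 with quantile normalization. Ppp3r1, the calcium-binding B subunit that the A subunits need for activity, stood at 295 in RANKhigh cells and 464 in c-Fmshigh cells. It was 1.57-fold lower in RANKhigh cells (-0.65), the lowest difference of the 10 genes, and 19.5% of the 11089 genes lay at least as far apart. The 3 subunit genes thus did not shift together.

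The remaining catalytic isoform, Ppp3cc, first described in testis and taken from the wider pathway list, differed most of the calcineurin genes. It stood at 427 in RANKhigh cells and 144 in c-Fmshigh cells, 2.97-fold higher in the RANKhigh cells (1.57), and 2.72% of the 11089 genes lay that far apart. The other B subunit gene, Ppp3r2, which is known as a testis form, was under the guide at 33.3 in RANKhigh cells and 30.3 in c-Fmshigh cells. Ratios between genes within an array do not depend on a shift of the whole array, so unequal change can be read from them. The ratio of Ppp3ca to Ppp3r1 was 2.17-fold higher in RANKhigh cells, that of Ppp3cc to Ppp3r1 4.67-fold higher, and that of Ppp3ca to Ppp3cb 1.58-fold higher. Of the 3 pairs among Ppp3ca, Ppp3cb and Ppp3r1, the ratio differed between the arrays by 2-fold or more in 1, that of Ppp3ca to Ppp3r1. These genes had the highest and the lowest difference of the 10, so no other pair of the 10 could differ more. The share of all gene pairs on the array that differ by as much was not computed. The pairs with Ppp3cc follow from that gene's own difference. With a pseudocount of 50 the ratio of Ppp3ca to Ppp3cc differed 1.82-fold in place of 2.15-fold. The ratios describe unequal change of transcripts and say nothing of how the subunits assemble.

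The windows before the RefSeq starts of Ppp3r1 and Ppp3cb are shown to set the gene with the lowest difference beside another subunit gene, with GGAAA on either strand in capitals. They lie at chr11:17159048-17159297, plus strand, and chr14:20546574-20546823, minus strand. No window of Ppp3ca was used here.
Ppp3r1: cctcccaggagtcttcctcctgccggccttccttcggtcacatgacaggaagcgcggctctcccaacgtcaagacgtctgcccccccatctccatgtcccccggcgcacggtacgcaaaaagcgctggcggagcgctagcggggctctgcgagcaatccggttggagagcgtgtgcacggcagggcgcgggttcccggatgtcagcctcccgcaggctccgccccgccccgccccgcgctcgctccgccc
Ppp3cb: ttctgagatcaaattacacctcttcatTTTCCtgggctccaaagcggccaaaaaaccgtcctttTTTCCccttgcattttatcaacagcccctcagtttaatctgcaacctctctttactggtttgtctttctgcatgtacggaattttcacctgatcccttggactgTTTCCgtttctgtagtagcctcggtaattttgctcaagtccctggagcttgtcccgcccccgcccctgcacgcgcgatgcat
The Ppp3r1 window holds 0 matches, and the Ppp3cb window holds 3, all on the other strand. At least 3 matches stand in 6.39% of all windows. No match says only that these letters are not in this window.

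**Figure D3:**
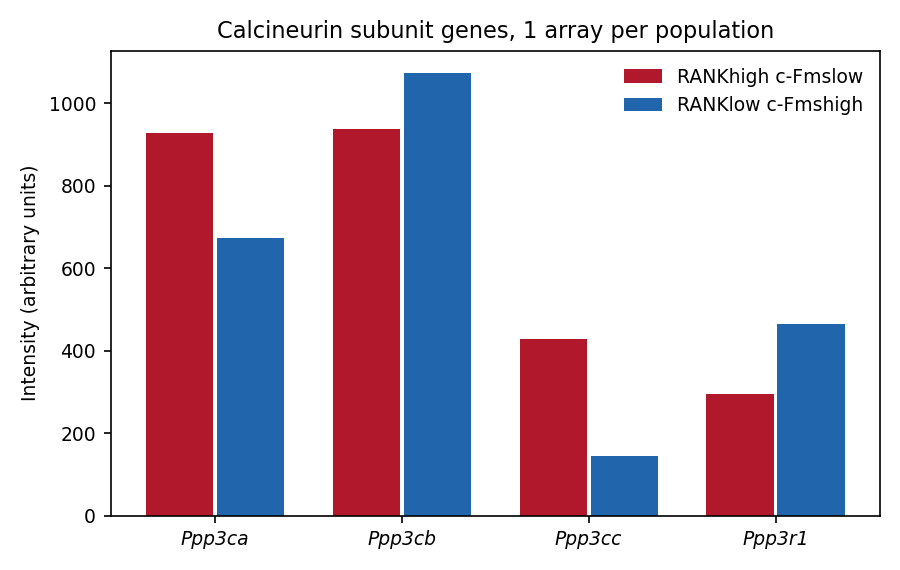
Intensity (arbitrary units, linear axis from 0) of the 4 calcineurin subunit genes above the background guide, in RANKhigh c-Fmslow cells (left bar) and RANKlow c-Fmshigh cells (right bar), 1 array each and no error bars. Within each gene, Ppp3ca and Ppp3cc are higher in RANKhigh c-Fmslow cells and Ppp3r1 and Ppp3cb lower, and Ppp3cc has the widest gap, at 427 in RANKhigh c-Fmslow and 144 in RANKlow c-Fmshigh cells. Bar heights of different genes come from different probes and are not comparable.

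The calcium-dependent regulators gave a single measurable gene. Rcan1 encodes a calcineurin-binding protein that can inhibit the enzyme, and the gene is itself switched on by NFAT, so that it is often used as a readout of the pathway. It stood at 154 in RANKhigh cells and 179 in c-Fmshigh cells, 1.16-fold lower in RANKhigh cells (-0.22), and 58.8% of the 11089 genes lay at least as far apart. Camk4 encodes a calmodulin-dependent kinase that activates CREB and is known to act upstream of Nfatc1 in osteoclast precursors. It stood at 50.4 in RANKhigh cells and 52.5 in c-Fmshigh cells, under the guide in both, so no detection and no difference is claimed. T cells express Camk4 strongly, and in RANKhigh cells 4 of the 11 measured genes of the T cell list were higher by 2-fold or more.

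Rcan1 has a pair of starts, and NFAT is known to drive the short form from an internal start. Its probe set lists 2 curated RefSeq transcripts, so the intensity cannot be split between them. The 250 bases before each start are shown, because the NFAT core differs between them. As they were picked on that difference, it is a description, and the use of either start was not tested. The first window lies at the upstream end of the gene at chr16:92466170-92466419, minus strand, and the second inside the gene at chr16:92400079-92400328, minus strand.
Rcan1 upstream start: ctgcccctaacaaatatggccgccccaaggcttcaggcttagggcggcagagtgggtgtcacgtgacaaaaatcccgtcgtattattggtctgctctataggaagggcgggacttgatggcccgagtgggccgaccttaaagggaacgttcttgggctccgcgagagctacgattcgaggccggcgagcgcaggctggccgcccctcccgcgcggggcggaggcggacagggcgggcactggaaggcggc
Rcan1 internal start: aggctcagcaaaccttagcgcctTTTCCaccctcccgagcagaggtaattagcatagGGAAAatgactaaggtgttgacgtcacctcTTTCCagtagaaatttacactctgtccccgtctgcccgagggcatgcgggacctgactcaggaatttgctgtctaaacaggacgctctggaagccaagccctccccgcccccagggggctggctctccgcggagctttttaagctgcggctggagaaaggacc
The upstream window holds 0 matches to GGAAA, and the internal window holds 3, of which 1 is on the gene's strand and 2 on the other. Over the 7 of the 10 genes whose windows were used, 7 of 10 windows hold at least 1 match, beside 55.6% of all windows. In 4 of the 10 windows, those of Nfatc4, Ppp3cb, the upstream start of Nfatc2 and the internal start of Rcan1, 3 matches stand, beside 6.39% of all windows with at least 3. With so few windows the shares are a description.

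The genes around calcineurin and NFAT were taken from lists of the pathway. As a background to the counts below, 4.34% of the 11089 genes were higher and 4.26% lower by 2-fold or more in RANKhigh cells. In the list of calcium entry and release 16 of 18 genes were measured, and 14 passed the level filter. In RANKhigh cells 1 of the 14 was lower by 2-fold or more and 0 were higher, and the median difference over the 16 was 0.09. The lower gene was Atp2b1, a plasma membrane pump that exports calcium, at 718 in RANKhigh cells and 2094 in c-Fmshigh cells (2.92-fold). Trpv2, a calcium-permeable channel of phagocytes, was 1.80-fold lower at 136 in RANKhigh cells against 245 in c-Fmshigh cells. Itpr2, an inositol trisphosphate receptor that osteoclast calcium oscillations need in mice, was 1.77-fold higher at 798 in RANKhigh cells against 450 in c-Fmshigh cells. Tmem64, a modulator of the endoplasmic reticulum calcium pump in osteoclasts, was 1.64-fold higher at 315 in RANKhigh cells against 192 in c-Fmshigh cells. The store sensor and channel genes Stim1 (231 in RANKhigh cells and 223 in c-Fmshigh cells) and Orai1 (173 in RANKhigh cells and 205 in c-Fmshigh cells) differed less. Of their relatives, Stim2 was 1.49-fold lower at 295 in RANKhigh cells against 440 in c-Fmshigh cells. Orai2 was 1.26-fold higher at 155 in RANKhigh cells against 123 in c-Fmshigh cells, and Orai3 1.10-fold higher at 222 against 202. These Stim and Orai genes were all picked out after their values were seen.

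Calmodulin genes and calmodulin-dependent kinases were listed next. Of 13 measured genes 10 passed the level filter. Of these, 1 was lower by 2-fold or more and 0 were higher, and the median over the 13 was -0.05. Camk1d, a calmodulin-dependent kinase of granulocytes and other cells, was 2.18-fold lower at 168 in RANKhigh cells against 368 in c-Fmshigh cells, and with a pseudocount of 50 it no longer reached 2-fold (-0.94). Camkk2, the kinase that activates CaMKI and CaMKIV, was 1.96-fold lower at 127 in RANKhigh cells against 248 in c-Fmshigh cells, and the CREB gene Creb1, a substrate of CaMKIV, 1.53-fold lower at 779 in RANKhigh cells against 1191 in c-Fmshigh cells. Camk2d was 1.43-fold higher at 354 in RANKhigh cells against 248 in c-Fmshigh cells. The calmodulin gene Calm2, chosen after its values were seen, stood at 5385 in RANKhigh cells and 5387 in c-Fmshigh cells.

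Partners of calcineurin included the Ppp3cc isoform described above, the 1 gene of this list past 2-fold. Of its 12 genes 10 passed the level filter, 0 of them lower by 2-fold or more, and the median of the 12 was -0.03. Chp1, a calcium-binding protein related to the B subunit, was 1.92-fold lower at 212 in RANKhigh cells against 408 in c-Fmshigh cells, and thus lay on the same side as Ppp3r1. Fkbp1a, the protein through which tacrolimus blocks calcineurin, was 1.67-fold lower at 237 in RANKhigh cells against 397 in c-Fmshigh cells. Cabin1, a calcineurin-binding inhibitor, was 1.57-fold higher at 285 in RANKhigh cells against 181 in c-Fmshigh cells. Kinases, transport and retention factors of NFAT numbered 15, of which 14 passed the level filter. In RANKhigh cells 2 of them were higher by 2-fold or more and 0 were lower, and the median over the 15 was -0.12. The 2 were Gsk3a, a kinase that returns NFAT to its phosphorylated form, at 727 in RANKhigh cells against 316 in c-Fmshigh cells (2.30-fold), and Dyrk2, which primes NFAT for that step, at 321 in RANKhigh cells against 150 in c-Fmshigh cells (2.15-fold). With a pseudocount of 50 Dyrk2 no longer reached 2-fold (0.89). Gsk3b, the close relative of Gsk3a and named after its value was seen, stood at 517 in RANKhigh cells and 460 in c-Fmshigh cells. Mapk14, the p38-alpha kinase, was 1.71-fold lower at 453 in RANKhigh cells against 775 in c-Fmshigh cells, and the casein kinase gene Csnk1a1 1.55-fold lower at 1068 in RANKhigh cells against 1654 in c-Fmshigh cells.

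**Figure D4:**
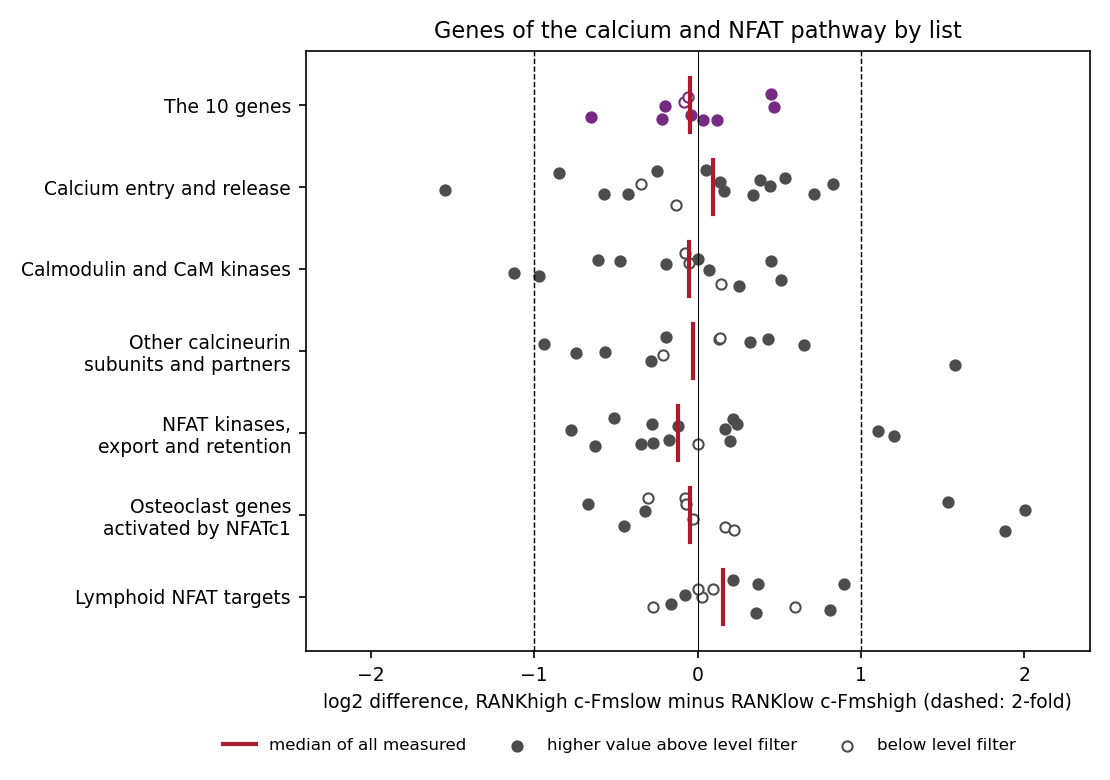
Each point is the log2 difference (RANKhigh c-Fmslow minus RANKlow c-Fmshigh) of a gene, arranged by list with the 10 genes on top, filled where the higher value passed the level filter, and red bars mark the median of all measured genes in a list. The medians lie between -0.12 and 0.16, and the points beyond the dashed 2-fold lines are Atp2b1 and Camk1d on the left and Ppp3cc, Gsk3a, Dyrk2, Acp5, Mmp9 and Car2 on the right.

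Genes that NFATc1 is known to activate in osteoclasts were divided. Of 12 measured, 6 passed the level filter. In RANKhigh cells 3 of the 6 were higher by 2-fold or more and 0 were lower, beside 4.34% and 4.26% of the 11089 genes. The median was 0.61 over these 6 and -0.05 over the 12, of which 5 lay under the guide on both arrays. The carbonic anhydrase gene Car2 was 4.01-fold higher and the acid phosphatase gene Acp5 2.90-fold, at 546 in RANKhigh cells against 188 in c-Fmshigh cells. The gelatinase gene Mmp9, at 277 in RANKhigh cells and under the guide in c-Fmshigh cells, was at least 3.38-fold higher. Mmp9 passed the level filter through its value in RANKhigh cells alone. Itgb3, the osteoclast integrin chain, was 1.59-fold lower at 131 in RANKhigh cells against 209 in c-Fmshigh cells. The 5 under the guide were Atp6v0d2, Calcr, Ctsk, Dcstamp and Oscar. Erythroid cells also make Car2, and neutrophils Mmp9: in RANKhigh cells, 10 of 10 genes of the erythroid list and 8 of 13 of the neutrophil list were higher by 2-fold or more. Their summed intensities were 14163 in RANKhigh cells and 3596 in c-Fmshigh cells for the erythroid list, and 47839 in RANKhigh cells and 19477 in c-Fmshigh cells for the neutrophil list. The part of these cells in the values was not tested.

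Of 12 targets of NFAT in lymphocytes 7 passed the level filter, 0 of which were 2-fold or more apart in either direction (median of the 12, 0.16). Egr2, a factor that calcineurin and NFAT induce in T cells, was 1.75-fold higher at 184 in RANKhigh cells against 105 in c-Fmshigh cells. Ifng was at least 1.21-fold higher, at 99.4 in RANKhigh cells against 53.3 in c-Fmshigh cells, Cd5 stood at 141 in RANKhigh cells against 110 in c-Fmshigh cells and Tnfaip3 at 472 in RANKhigh cells against 369 in c-Fmshigh cells. Il2, Fasl, Cd40lg and Pdcd1 were under the guide in both populations.

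The sorted populations differed in the markers of several cell types. All 14 measured genes of the B cell list were higher in RANKhigh cells by 2-fold or more, with summed intensities of 16875 in RANKhigh cells and 4565 in c-Fmshigh cells. The T cell list summed to 3199 in RANKhigh cells and 1268 in c-Fmshigh cells, and the NK cell list, with 3 of 10 genes at least 2-fold higher, to 2189 in RANKhigh cells and 1046 in c-Fmshigh cells. Monocyte markers ran the other way: 7 of 9 were lower by 2-fold or more and 0 were higher. Their sums were 4404 in RANKhigh cells and 19025 in c-Fmshigh cells. Csf1r, the gene of the sort marker c-Fms, is in this list, so 1 of the 7 is tied to the gate. The eosinophil list had the highest ratio of sums among the lists, at 12331 in RANKhigh cells and 1283 in c-Fmshigh cells. As deposited, 5 of its 7 genes were higher by 2-fold or more, and 4 were with a pseudocount of 16. Among the 5, Epx and Il5ra lay under the guide in c-Fmshigh cells. Il5ra, at 98.9 in RANKhigh cells and 47.9 in c-Fmshigh cells, had a bound of only 1.21-fold, and Epx had a bound of 3.37-fold. Of 8 basophil and mast cell genes 5 were higher by 2-fold or more, with sums of 3651 in RANKhigh cells and 1064 in c-Fmshigh cells. Among these 5, Cpa3 and Fcer1a lay under the guide in c-Fmshigh cells, with bounds of 2.71-fold and 2.10-fold. Of 5 megakaryocyte genes 1 was higher by 2-fold or more, with sums of 2187 in RANKhigh cells and 1053 in c-Fmshigh cells. Of 8 dendritic cell genes 3 were lower by 2-fold or more, with sums of 1530.0 in RANKhigh cells and 2999.6 in c-Fmshigh cells. Among the 3, Cd209a and Clec9a lay under the guide in RANKhigh cells, with bounds of 3.97-fold and 1.63-fold. With a pseudocount of 16 the count was 2. As with Mmp9, some genes counted in these marker lists passed the level filter through 1 population alone. The macrophage list was mixed, with 2 of 9 genes higher and 3 lower by that size, and 0 of 8 stromal and endothelial genes reached it. Under the guide on both arrays lay 4 NK cell genes, 4 stromal and endothelial genes, 2 dendritic cell genes, 1 T cell gene and 1 macrophage gene. Which of these cells carried the transcripts of Nfatc3, Ppp3ca, Ppp3cc and Ppp3r1 was not tested.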

How the data were processed

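Total RNA of each sorted population was amplified, labelled with biotin and hybridised to 1 single-colour oligonucleotide array, per the labels' protocols. The authors deposited an intensity on the linear scale for each probe set and array; GCOS 1.4 and RMA are named in the submitters' processing notes, with no role or order, and background correction and normalization were those of the authors. The genome build of the array is not given in the sources used here. Intensities ran from 19.9 to 13198 (median 94.5) in RANKhigh c-Fmslow cells and from 20.3 to 13453 (median 92.6) in RANKlow c-Fmshigh cells.

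Log2 was taken of the deposited intensities with no pseudocount or rescaling (Python 3.11.15, numpy 2.4.6, pandas 2.3.3). Of 28815 probe sets, 21780 name 1 gene in the platform annotation of 2016; several probe sets of a gene were averaged. All 10 symbols matched the reference gene table by Entrez identifier. No test was possible with 1 array per group, so genes were counted at 2-fold among those above the level filter. How often this rule misses or miscalls a gene on these arrays was not tested. Named are the 10 genes, the sort markers and up to 4 genes of each pathway list with the largest absolute difference above the level filter. Genes named after their values were seen are marked. Some genes under the guide on 1 or both arrays are named outside this rule, without such a mark. The members and lists were chosen with earlier results of these data known. Upstream sequences are RefSeq's, on GRCm38.p6. Windows of 7 of the 10 genes were used, and none of Nfatc1, Camk4 or Ppp3ca. For the 10 genes, windows on 1 chromosome were left out by rule, which was not done for the shares over all windows. The number of arrays limits the precision, and no depth applies.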

Additional observations from a re-analysis of the deposited data

How the results depend on the processing

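Each of the 10 log2 differences was recomputed with other summaries of probe sets, with each array centred on its median, with quantile normalization and with pseudocounts of 16 and 50. Of these 7 alternatives for each gene, all moved the difference by less than 0.19, the median gap between probe sets of a gene, and 0 changed its sign. The summaries, and the inclusion of probe sets naming several genes, could not change the 10 genes, which have 1 probe set each. Nfatc3 ranged from 0.42 to 0.57, Ppp3ca from 0.44 to 0.56, Ppp3r1 from -0.68 to -0.57 and Ppp3cb from -0.23 to -0.07. The count of the 10 genes at least 2-fold lower in RANKhigh c-Fmslow cells was 0 and became 1 at 1.5-fold. Over all genes the counts higher and lower, 481 and 472, became 319 and 311 with a pseudocount of 50, which pulls low intensities together by construction, and 1168 and 1371 at 1.5-fold. Without a level filter the median difference of the 10 genes was -0.05, against -0.0046 over the 8 above it. No replicate could be left out, and no paired analysis was possible because each population has 1 array. Signal over background limits Nfatc4 and Camk4, which lay under the guide.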

Other observations

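The other catalytic subunits of the phosphatase family to which calcineurin belongs were looked up after the values of the 10 genes had been seen. Of 10 such genes measured, 8 passed the level filter. In RANKhigh c-Fmslow cells 1 of them was lower by 2-fold or more and 0 were higher, and the median over the 10 was -0.20. The lower gene was Ppp4c, the catalytic subunit of protein phosphatase 4, at 228 in RANKhigh c-Fmslow cells and 483 in RANKlow c-Fmshigh cells (2.12-fold); with a pseudocount of 50, 0 genes of the list reached 2-fold. Ppp6c stood at 785 in RANKhigh c-Fmslow cells and 1048 in RANKlow c-Fmshigh cells, Ppp2ca, of protein phosphatase 2A, at 1988 in RANKhigh c-Fmslow cells and 2647 in RANKlow c-Fmshigh cells, and Ppp1ca, of protein phosphatase 1, at 2103 in RANKhigh c-Fmslow cells and 2565 in RANKlow c-Fmshigh cells. As deposited, 0 of the 10 genes were higher in RANKhigh c-Fmslow cells and 9 were lower, whereas with quantile normalization 4 were higher and 6 lower, so that no direction is stated for the family. Of the calcineurin catalytic genes, Ppp3ca at 0.47 and Ppp3cc at 1.57 lay above every gene of this list as deposited. Ppp3cb at -0.20 lay close to the median of the list.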
